A study of Mus musculus with 24 samples.

Results

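Neutrophils sorted from colon tumours were compared with neutrophils sorted from colon lamina propria (LP), over all genes and with attention to how the libraries were scaled. Of the 24 RNA sequencing libraries, 6 hold neutrophils. These are tumour libraries I, II and V and LP libraries III, IV and V, chosen by their labels, and values are always given in the order LP III, IV, V and tumour I, II, V. The other 18 libraries hold monocytes and MHCIIhi and MHCIIlow macrophages of the same 2 tissues and entered the fit as further groups. The LP came from mice labelled as strain C57/BL with a healthy LP, and the tumours were colon tumours of mice labelled APC/Min, in which a germline Apc mutation gives rise to intestinal adenomas. Both neutrophil groups were sorted as Ly6Ghi F4/80- CD11b+ cells, and tissue of several mice was pooled for each library. Per the study's methods, Apc mutant mice and their C57BL/6J controls both drank water with dextran sodium sulphate (DSS), which injures the colon epithelium, at concentrations that differed, and were killed some weeks later. The labels name no DSS and call the LP healthy. The tissue, the Apc genotype, the DSS dose and the cell isolation cannot be told apart here. The study also names independent experiments without assigning libraries to them, and only number V occurs in both neutrophil groups. Differences between experiments therefore cannot be fully told apart from the tissue either. The LP was freed of epithelium with EDTA before a collagenase digestion and a layered Percoll gradient, whereas the tumours had no EDTA step, a shorter digestion with DNase and a single Percoll layer.

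Neutrophils are short-lived granulocytes that leave the bone marrow with their granule proteins already made, follow CXC chemokines and formyl peptides into tissue, and carry little RNA per cell. In inflamed gut and in tumours they are known as a source of interleukin 1, chemokines, prostaglandin-forming enzymes and proteases. Stimulation of a neutrophil first induces immediate-early genes and the feedback inhibitors of NF-kappaB, whereas interferons induce GTPases and antiviral proteins through the interferon-stimulated response element (ISRE). Over all genes tested, limma called 13.1% higher and 19.0% lower in tumour neutrophils at an adjusted p under 0.05, and these shares are the background for each count given here.

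Promoter stretches are shown for genes of the immediate-early, NF-kappaB and interferon lists, which have well known promoter elements. Sequences are from RefSeq (GRCm38.p6) and are printed 5′ to 3′ on the strand of the gene. Each ends at or before the transcription start, and the capitals mark a match on either strand to GAAA, any 2 bases and GAAA (the ISRE) in the first 4, to GGG, any 2 bases and TTTCC (an NF-kappaB site) in the next 3, and to TGACGTCA (the cyclic AMP response element, CRE, which reads the same on both strands) in the last.
Irgm1, chr11:48871421-48871485, minus strand: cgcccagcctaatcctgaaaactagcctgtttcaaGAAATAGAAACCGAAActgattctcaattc
Igtp, chr11:58199487-58199555, plus strand: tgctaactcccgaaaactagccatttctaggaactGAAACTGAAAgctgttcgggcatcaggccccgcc
Gbp3, chr3:142559964-142560043, plus strand: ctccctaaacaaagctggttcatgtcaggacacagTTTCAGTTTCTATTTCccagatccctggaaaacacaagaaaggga
Ifit1, chr19:34640750-34640829, plus strand: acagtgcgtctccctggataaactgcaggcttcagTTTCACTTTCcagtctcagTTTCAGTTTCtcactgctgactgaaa
Tnfaip3, chr10:19015411-19015457, minus strand: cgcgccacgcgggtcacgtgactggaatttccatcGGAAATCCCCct
Rel, chr11:23771016-23771095, minus strand: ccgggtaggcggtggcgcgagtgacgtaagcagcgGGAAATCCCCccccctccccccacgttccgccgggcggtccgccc
Nfkbia, chr12:55492648-55492711, minus strand: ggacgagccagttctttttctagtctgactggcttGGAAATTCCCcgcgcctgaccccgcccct
Dusp1, chr17:26508573-26508650, minus strand: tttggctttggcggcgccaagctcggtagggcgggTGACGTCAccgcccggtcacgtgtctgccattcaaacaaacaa

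Within the 250 bases before the start, the ISRE letters stood in 3.46% of 27025 genes with a promoter entry and in 17 of the 31 tested interferon-stimulated genes that had an entry. Of the 8 with an entry that were lower in tumour neutrophils, 5 held them. The NF-kappaB letters stood in 1.65% of those genes, in 4 of the 20 members of the NF-kappaB feedback list with an entry, and in 3 of the 9 with an entry that were higher. The CRE letters stood in 1.77% of those genes and in 2 of the 16 immediate-early genes with an entry. A match describes letters in a window and was not tested as a site.

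The LP neutrophil libraries held 37.9, 19.7 and 33.2 M reads on genes and the tumour neutrophil libraries 26.7, 17.5 and 15.9 M. The deposited values are log2 RPKM (reads per unit of transcript length, relative to a library size), and the library sizes within them were not the summed reads. In the neutrophils these sizes were 0.630 to 0.682 times the summed reads for LP and 0.466 to 0.483 times for tumour, against 0.981 to 1.51 times in the 18 other libraries. Neutrophil values were thus raised against those of the other populations, and tumour values were raised by 0.47 log2 against LP values relative to plain scaling by summed reads. A scaling by the median of ratios to a mean library would have raised them by 0.62, and one by the reads outside the 50 genes with the most reads by 0.16. Those 50 genes took 27.6 to 28.6% of the reads in the LP libraries and 35.6 to 35.9% in the tumour libraries, and 26 of them were higher and 2 lower in the tumour under the deposited scaling. Il1b, which encodes pro-interleukin 1 beta, took 1.22 to 1.42% of the reads in LP and 2.31 to 3.16% in the tumour. Acod1, which makes itaconate, took 0.580 to 0.761% in LP and 2.00 to 2.3% in the tumour. Per the study's methods, spike-in RNA was added to a fixed amount of total RNA, so it would give a scale per amount of RNA and not per cell. The table holds 0 spike-in genes. Fewer transcripts per cell, fewer cells of a type and a few strongly raised genes cannot be told apart in these bulk libraries.

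**Figure D1:**
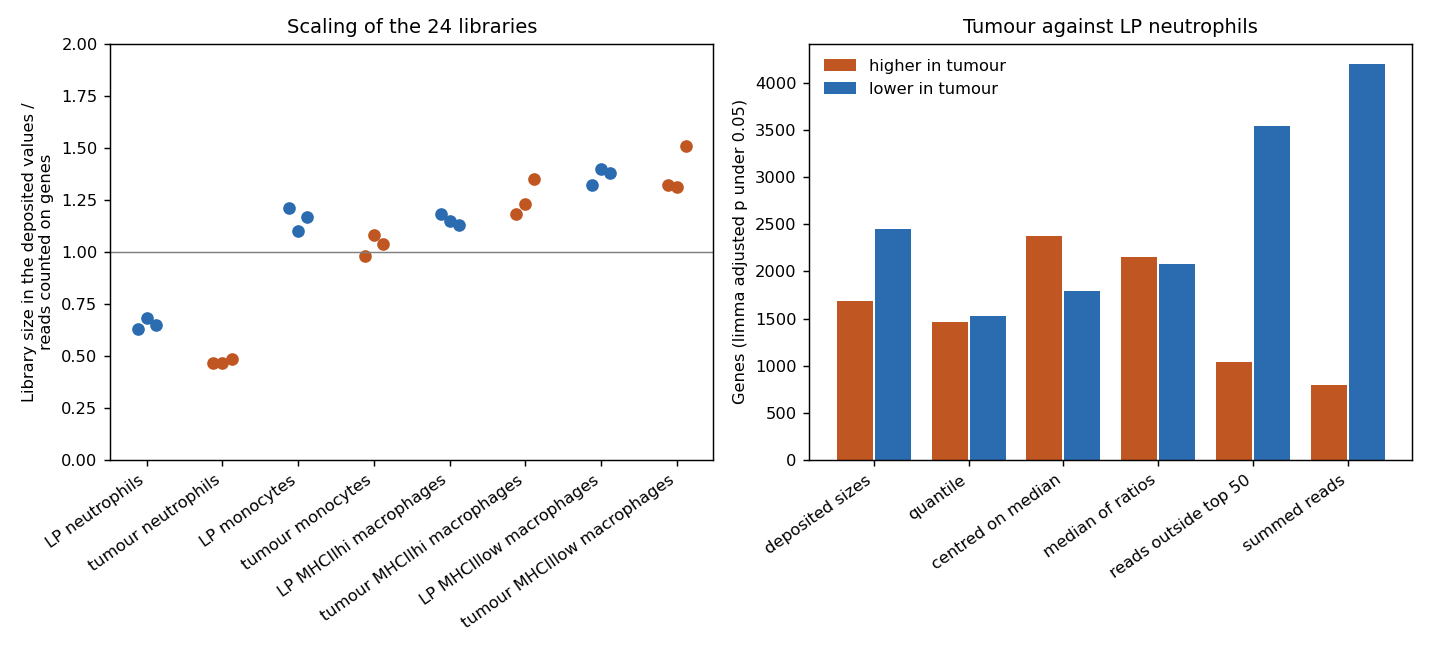
Left, the ratio of the library size within the deposited values to the reads counted on genes, for each of the 24 libraries by group; the grey line marks equality. Right, bars of the number of genes called higher or lower in tumour than in LP neutrophils under 6 scalings. The neutrophil libraries lie below all the others, tumour below LP, and the calls go from 2375 higher and 1788 lower when libraries are centred on their median to 799 higher and 4206 lower with summed reads.

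Within the 6 libraries the log2 RPKM of all genes tested correlated at 0.872 to 0.890 among LP, at 0.860 to 0.888 among tumour and at 0.778 to 0.803 between tissues (Pearson's r across genes, which are not independent replicates). Of the 12878 genes whose group mean reached an RPKM of 1 in any population, limma called 1690 (13.1%) higher and 2452 (19.0%) lower in tumour neutrophils. The median log2 difference of all these genes was −0.12. The balance of the calls followed the scaling. Centring each library on its median gave 57.1% of calls as higher, the median of ratios 51%, quantile normalisation 49.0%, the deposited values 40.8%, the reads outside the top genes 22.6% and the summed reads 16%. Of the 1690 higher genes, 1333 remained higher with quantile normalisation and 799 with summed reads. Of the 2452 lower genes, 2444 remained lower with summed reads and 1482 with quantile normalisation. Across all 6 scalings, 774 genes (6.01%) were higher each time and 1400 (10.9%) were lower each time, and these are described below as higher or lower under every scaling.

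The centre of the comparison also moved with the level of the gene. In 5 equal classes of genes by mean level, from the lowest to the highest, the median difference was −0.63, −0.31, −0.22, −0.11 and 0.15 under the deposited scaling. The highest class held 699 of the 1690 higher genes and the lowest 211. Summed reads gave −0.88 in the lowest and −0.31 in the highest class. Quantile normalisation, which forces equal distributions, gave 0.03 and 0.05. In 4 classes of gene length, from short to long, the medians were −0.17, −0.17, −0.13 and −0.03. Tumour libraries also had fewer genes above 3 reads, at 12800, 12055 and 12038, than LP libraries, at 13514, 13075 and 13825.

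**Figure D2:**
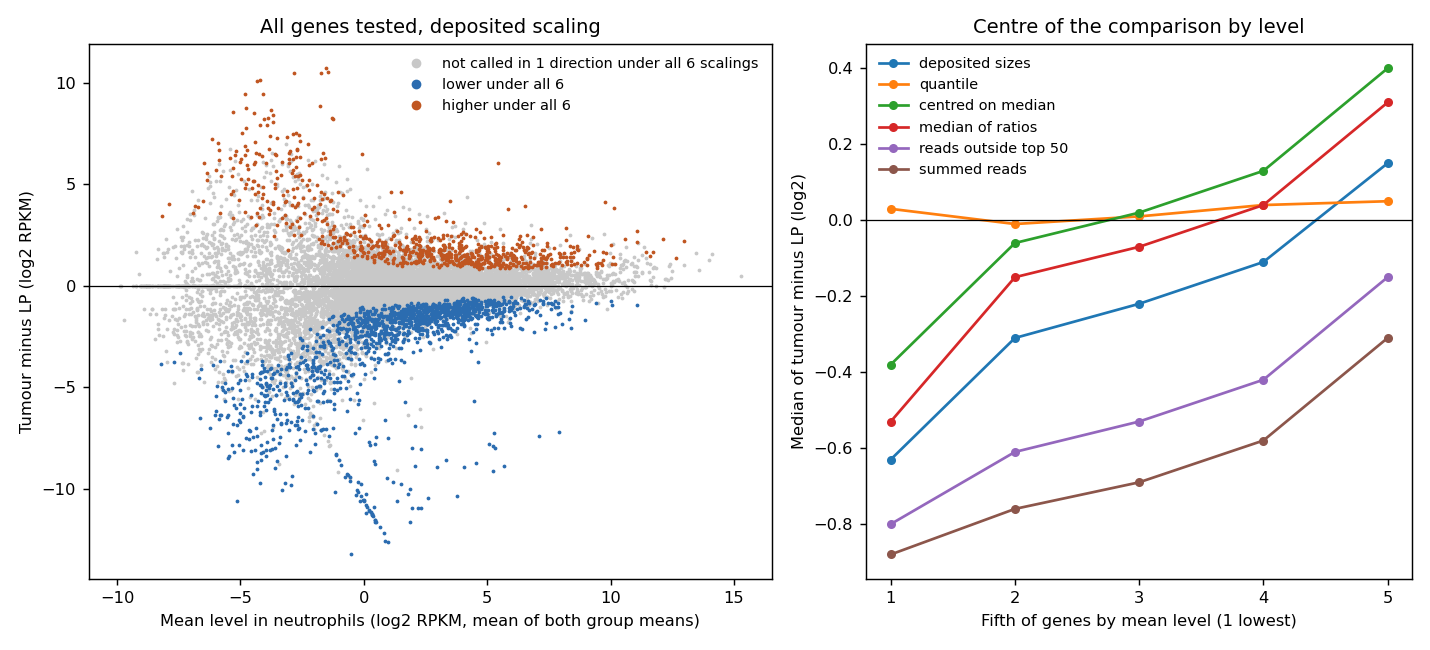
Left, the tumour minus LP difference (log2 RPKM) of each gene against its mean level in neutrophils (log2 RPKM); coloured genes were called in 1 direction under all 6 scalings, 774 higher and 1400 lower. Right, the median difference (log2) in 5 classes of genes by level, 1 line per scaling; only quantile normalisation is flat, and the other 5 rise from the lowest to the highest class.

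Among genes that did not overlap between the groups and reached an RPKM of 10, the largest rises included genes of the epithelial marker list, Krt18 and Cldn7, and cytokine and immediate-early genes described with their lists below. Mmp7, the matrix metalloproteinase of Paneth and adenoma cells (chr9:7692090-7699585, plus strand), had 0 reads in all LP libraries and 180, 119 and 122 in the tumour, at least 92.0-fold higher as a ratio of mean RPKM to a floor of 3 reads per library. Itln1, the lectin intelectin (chr1:171518122-171535294, minus strand), also had 0 reads in LP and 116, 224 and 64 in the tumour, at least 92.4-fold higher. Neither had a read in any LP library. Krt18, a keratin of simple epithelia, stood at 0.80, 1.02 and 2.36 log2 RPKM in LP and 5.88, 5.30 and 5.56 in the tumour (log2 difference 4.19 ± 0.70 SE, adjusted p = 1.5e-04). The tight-junction gene Cldn7 differed by 4.6 ± 1.26, and Gpx2, an intestinal glutathione peroxidase, by 3.45 ± 1.10. Without LP library III, the call of Cldn7 was lost at 3.26, and the call of Gpx2 was lost at 3.16, as it was without tumour library I at 3.36.

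Serpinb2, an inhibitor of plasminogen activators that shares 10.3% of its read-length stretches with Serpinb10, rose most among genes read in every library. It stood at 2.39, 2.29 and 2.62 log2 RPKM in LP and 9.13, 7.74 and 8.5 in the tumour, a log2 difference of 6.03 ± 1.4 (adjusted p = 0.00255). F3, tissue factor, which starts coagulation, stood at 4.74, 4.49 and 4.52 in LP and 8.92, 8.48 and 8.17 in the tumour (3.94 ± 0.57, adjusted p = 3.2e-05). The groups were far apart for both, and both were higher under every scaling. Rfx2, a transcription factor of ciliated cells, differed by 4.6 ± 1.22. The mitochondrial serine transfer RNA gene mt-Ts1 also met the rule but rested on 3, 1 and 0 reads in LP and 3, 3 and 15 in the tumour.

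Large falls were led by genes of stromal, plasma and dendritic cells. Dcn, the matrix proteoglycan decorin (chr10:97479609-97518143, plus strand), had 591, 635 and 578 reads in LP and 0, 2 and 0 in the tumour. Jchain, which joins immunoglobulin chains in plasma cells, stood at 8.82, 8.41 and 10.31 log2 RPKM in LP and −2.46, 4.26 and 2.06 in the tumour (−7.89 ± 1.91, adjusted p = 0.00349). Tumour library I was lowest and the 3 tumour libraries spread widely, without reaching LP. Serpinb9, the inhibitor of granzyme B, had 620, 356 and 1189 reads in LP and 2, 0 and 54 in the tumour. The lectin genes Mgl2 and Cd209a of dendritic cells and macrophages fell by 6.63 ± 1.58 and 5.75 ± 1.08, and the chemokine receptor gene Ccr7 of migrating dendritic cells by 3.78 ± 0.85. Mgl2 had 0 reads in tumour library I, and without that library its difference was −3.91. Ccl22, the ligand of Ccr4, fell by 5.77 ± 2.08 but lost its call without any of the LP libraries or without tumour library II, at −2.98 in the last case. A feature listed only as ENSMUSG00000094749.1, to which the tables used here give no symbol, was at least 34.8-fold lower.

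Some of the named falls were in genes read in the neutrophil libraries at lower levels. Kif1a, a kinesin of vesicle transport, stood at 3.42, 3.20 and 3.37 log2 RPKM in LP and −0.88, −0.16 and 0.01 in the tumour (−3.67 ± 0.53, adjusted p = 3.0e-05). Il7r, the interleukin 7 receptor, stood at 3.66, 3.39 and 3.85 in LP and 0.00, 0.58 and 0.51 in the tumour (−3.27 ± 0.31, adjusted p = 3.4e-07). Cdt1, which licenses DNA replication, stood at 4.44, 3.67 and 3.44 in LP and 1.23, −0.06 and 0.93 in the tumour (−3.15 ± 0.28, adjusted p = 1.4e-07). All 3 were lower under every scaling. Il7r is also a member of the T and NK cell marker list. The summed level of that list was 3.89 to 4.32 log2 RPKM in LP and 1.72 to 2.88 in the tumour. The part of such cells in the fall of Il7r was not tested. The microRNA gene Mir291a, at 31, 8 and 21 reads in LP and 1, 0 and 3 in the tumour, lies wholly within an exon of Nlrp12 on the other strand. The use of strand in counting is not stated, so reads of both cannot be told apart, and without tumour library II its difference went from −3.76 to −2.29.

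Of 20 immediate-early genes tested, 13 were higher, 0 lower and 7 not called. Under every scaling 10 were higher, and the median difference was 1.35 log2 (0.83 to 1.60 over the scalings) beside −0.12 for all genes. Nr4a1, an orphan nuclear receptor induced within minutes of stimulation (chr15:101254269-101274795, plus strand), stood at 8.30, 8.21 and 8.22 log2 RPKM in LP and 12.02, 12.28 and 11.86 in the tumour. Its 14-fold rise (3.81 ± 0.34, adjusted p = 1.5e-07) was the largest of the list. Its relatives Nr4a2 and Nr4a3 rose by 2.26 ± 0.34 and 1.98 ± 0.37. Fosl1, a Fos-family subunit of AP-1, stood at 7.03, 6.75 and 6.49 in LP and 9.82, 9.54 and 9.42 in the tumour (2.84 ± 0.55, adjusted p = 5.6e-04). Over 57.2% of its exon length, Fosl1 overlaps Ccdc85b on the other strand. Fosb stood at 5.86, 5.34 and 5.79 in LP and 8.15, 8.11 and 7.93 in the tumour (2.40 ± 0.25, adjusted p = 9.7e-07). Junb and Jun, their partners in AP-1, rose by 1.64 ± 0.22 and 1.43 ± 0.24.

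Of the feedback members of the same list, Zfp36, the RNA-binding protein that speeds decay of cytokine messengers, stood at 9.87, 10.43 and 9.67 log2 RPKM in LP and 12.17, 12.31 and 11.94 in the tumour (2.15 ± 0.23, adjusted p = 1.1e-06). Dusp1, the phosphatase of p38 and JNK whose promoter is shown above, stood at 11.86, 12.07 and 11.97 in LP and 13.14, 13.55 and 13.28 in the tumour (1.36 ± 0.20, adjusted p = 4.6e-05). Both were higher under every scaling. Fos rose by 1.06 ± 0.21 under the deposited scaling and was not higher under every scaling. The digestion of the tissue differed between the groups, and its share in the levels of these quickly induced genes cannot be told apart from that of the tissue.

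In the NF-kappaB feedback list, 11 of 23 tested genes were higher and 3 lower, 9 and 3 of them under every scaling, with a median of 0.69 log2 (0.22 to 0.93 over the scalings). Higher were the nuclear inhibitors Nfkbid, at 7.20, 7.05 and 7.04 log2 RPKM in LP and 9.47, 9.32 and 9.20 in the tumour (2.23 ± 0.22, adjusted p = 5.2e-07), and Nfkbiz, which differed by 2.02 ± 0.24. The cytoplasmic inhibitor Nfkbie stood at 7.88, 7.59 and 7.78 in LP and 9.54, 9.54 and 9.56 in the tumour (1.80 ± 0.17, adjusted p = 2.5e-07). Tnfaip3, the ubiquitin-editing enzyme A20, stood at 7.91, 8.08 and 7.42 in LP and 9.71, 9.51 and 9.45 in the tumour (1.76 ± 0.26, adjusted p = 3.5e-05). The tumour libraries lay close to one another and above every LP library in each case. The subunit c-Rel (Rel) rose by 1.58 ± 0.15 and Birc3, an inhibitor of apoptosis, by 1.43 ± 0.18. Nfkbia, encoding IkappaB-alpha, rose by 1.07 ± 0.31, but not under every scaling, and its call was lost without LP library V at 0.92. Lower were the A20-binding proteins Tnip3, at 3.66, 2.99 and 4.25 in LP and 1.10, 1.06 and 2.26 in the tumour (−2.16 ± 0.32, adjusted p = 4.6e-05), and Tnip1 (−0.75 ± 0.15), and the kinase gene Ikbke (−1.41 ± 0.20).

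Cytokine and growth factor genes were higher for 11 and lower for 2 of 30 tested, 4 and 1 under every scaling, with a median of 0.67 log2. Il1a, interleukin 1 alpha (chr2:129299610-129309972, minus strand), stood at 8.04, 7.99 and 7.06 log2 RPKM in LP and 12, 11.93 and 11.51 in the tumour. This was a 17.4-fold difference (4.12 ± 0.28, adjusted p = 7.1e-09), with no overlap. Osm, oncostatin M, stood at 9.44, 9.89 and 9.80 in LP and 12.45, 12.51 and 12.26 in the tumour (2.70 ± 0.23, adjusted p = 9.5e-08). Ptgs2, cyclooxygenase 2, stood at 9.49, 9.60 and 9.21 in LP and 11.63, 11.87 and 11.71 in the tumour (2.3 ± 0.22, adjusted p = 3.1e-07). Il23a, the p19 subunit of interleukin 23, stood at 3.75, 4.42 and 3.72 in LP and 7.85, 8.42 and 7.01 in the tumour (3.80 ± 1.15, adjusted p = 0.0155). These 4 were the members higher under every scaling, although Il23a lost its call without tumour library II at 3.47. The count of 11 was 7 without LP library IV and also 7 without tumour library I or II.

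Other cytokines depended more on the scaling or on single libraries. Il1b stood at 13.31, 13.25 and 13.49 log2 RPKM in LP and 14.98, 15.12 and 14.61 in the tumour (1.55 ± 0.28, adjusted p = 3.3e-04). Its difference was 0.00 under quantile normalisation, since Il1b and Cd14 held ranks 2 and 3 by level in each of the 6 libraries and this method gives equal ranks equal values. Tnf rose by 1.28 ± 0.30 and Csf3, the granulocyte colony-stimulating factor, by 2.99 ± 1.12 under the deposited scaling. Csf3 lost its call when any of the 6 libraries was left out, at differences of 2.82 without tumour library I to 3.15 without LP library IV. Areg, amphiregulin, an EGF receptor ligand, rose by 1.7 ± 0.55 and lost its call without LP library IV (1.42) or tumour library I (1.36). Il18, interleukin 18, was the member lower under every scaling, at 6.27, 6.10 and 5.93 in LP and 4.73, 4.39 and 5.35 in the tumour (−1.28 ± 0.28, adjusted p = 0.00149). Tnfsf14 differed by −1.02 ± 0.38, with a call that only the set without tumour library V retained.

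Chemokine genes had calls in both directions. Of 13 CXC ligands, 3 were higher and 4 lower, with a median of −0.81 log2 that reached 0.03 under quantile normalisation. The neutrophil attractants Cxcl2 and Cxcl3 were higher. Cxcl2 stood at 12.80, 12.68 and 12.49 log2 RPKM in LP and 14.6, 14.47 and 13.78 in the tumour (1.63 ± 0.41, adjusted p = 0.00518), and Cxcl3 differed by 1.90 ± 0.48, neither of them under every scaling. Cxcl9, a ligand of Cxcr3 induced by interferon gamma, fell by 3.07 ± 0.74 and Cxcl16, which shares exon sequence with Zmynd15, by 0.81 ± 0.17, both under every scaling. Of 11 CC ligands, 4 were higher and 4 lower, with a median of 0.00. Under every scaling 0 were higher and 2 lower. With quantile normalisation 1 was higher and 2 lower, and with summed reads 1 and 4. Ccl3 and Ccl4, attractants for monocytes and T cells, rose by 1.28 ± 0.30 and 1.61 ± 0.48 under the deposited scaling, and Ccl4 lost its call without LP library V at 1.48. The 4 lower CC ligands were 2 without LP library IV.

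**Figure D3:**
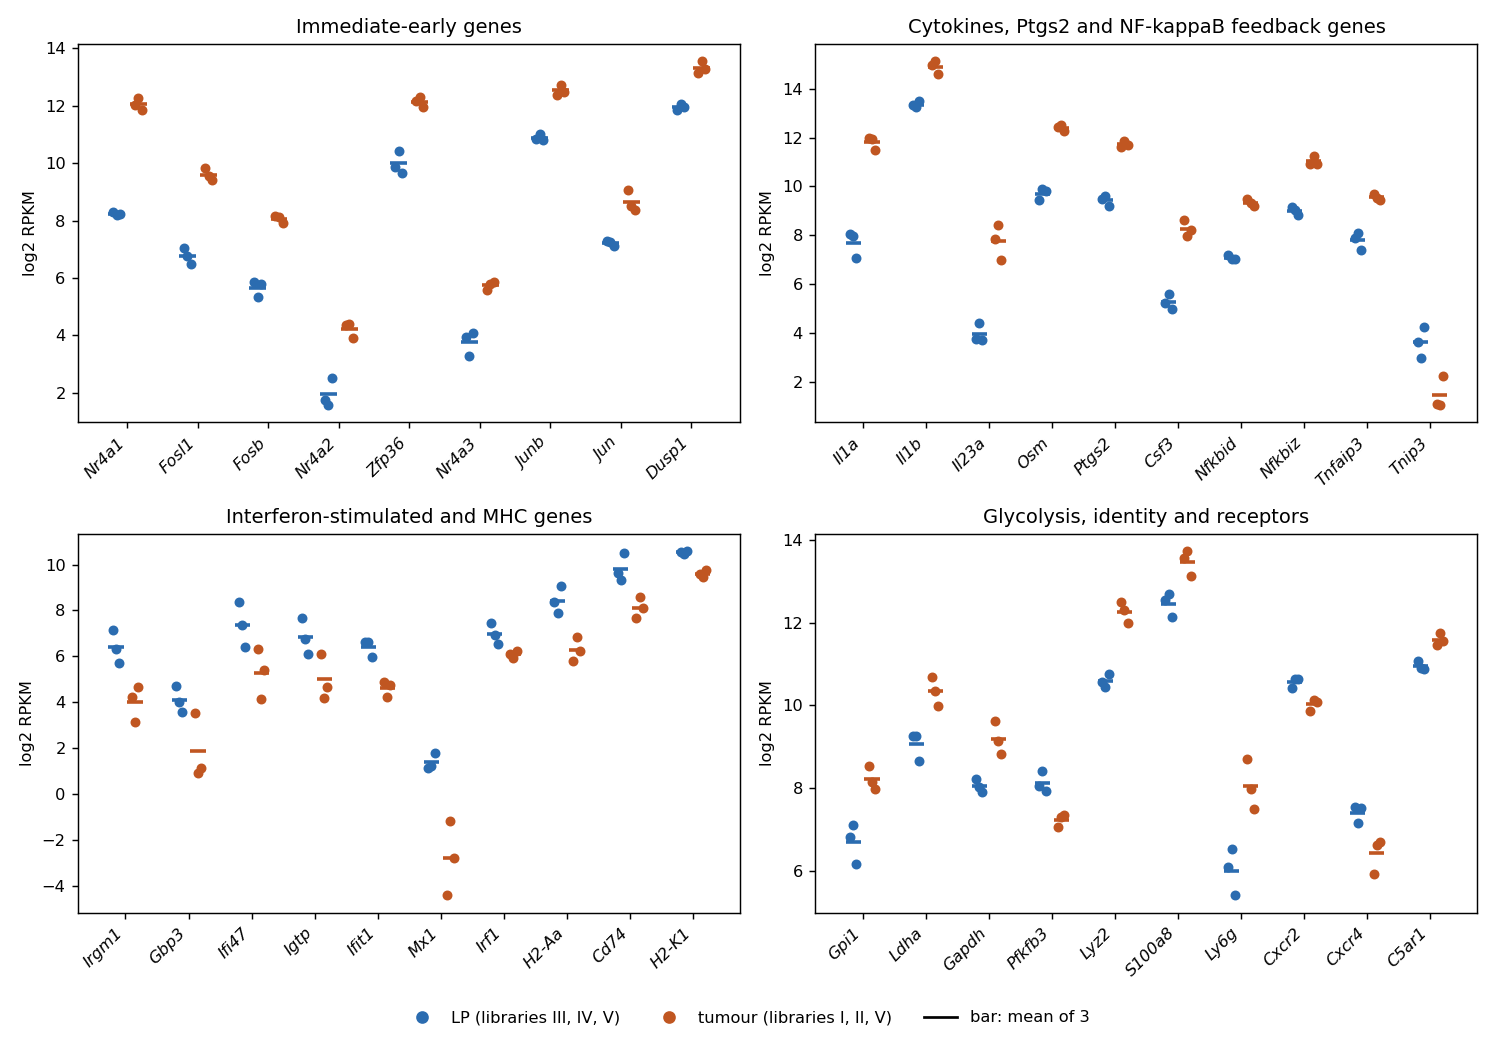
Level (log2 RPKM) of leading genes in each neutrophil library; blue points are LP libraries, orange points tumour libraries, and bars the mean of 3. Immediate-early, NF-kappaB feedback and cytokine genes lie higher in the tumour with Tnip3 as an exception, interferon-stimulated and MHC genes lie lower, and for Gbp3, Igtp and Ifi47 a tumour library comes near to the lowest LP library.

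Interferon-stimulated genes were lower for 12 and higher for 0 of 39 tested, 9 lower under every scaling, with a median of −0.55 log2 (−1.01 to −0.30 over the scalings). Irgm1, an immunity-related GTPase, stood at 7.16, 6.33 and 5.72 log2 RPKM in LP and 4.22, 3.15 and 4.68 in the tumour (−2.38 ± 0.44, adjusted p = 3.6e-04). Gbp3, a guanylate-binding GTPase, stood at 4.70, 4.01 and 3.57 in LP and 3.54, 0.90 and 1.12 in the tumour (−2.24 ± 0.46, adjusted p = 9.4e-04). Ifi47 and Igtp, 2 more such GTPases, fell by 2.10 ± 0.49 and 1.86 ± 0.49, and Igtp shares 11.6% of its read-length stretches with Irgm2. Within the LP, library III was highest and V lowest for these 4 GTPases, so their spread between LP libraries was wide, and the highest tumour library came up to the lowest LP library for Igtp at 6.12 in both. Ifit1, which binds foreign RNA caps, stood at 6.64, 6.61 and 5.98 in LP and 4.88, 4.23 and 4.75 in the tumour (−1.79 ± 0.37, adjusted p = 9.0e-04). Mx1, an antiviral GTPase, had 188, 115 and 272 reads in LP and 2, 13 and 4 in the tumour (−4.18 ± 0.57, adjusted p = 1.7e-05). Mx2 had 57, 92 and 62 reads in LP and 0 in each tumour library, at least 12.1-fold lower, and is annotated as a polymorphic pseudogene. Irf1, a transcription factor of the interferon response, fell by 0.90 ± 0.24, a call lost without LP library III at −0.66. Rsad2, viperin, differed by −0.94 ± 0.35 and lost its call without LP library III or IV or tumour library I or II, at −0.94 to −0.80.

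The size of the interferon list's count followed the scaling and the libraries fitted. With summed reads 22 members were lower, and with only the 6 neutrophil libraries in the fit 7 were lower. The count of higher members was 0 or 1 in each alternative run.

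Of 10 MHC class II presentation genes, 7 were lower and 1 higher, 6 lower under every scaling, with a median of −1.45 log2. H2-Aa, a class II chain, stood at 8.35, 7.90 and 9.05 log2 RPKM in LP and 5.81, 6.83 and 6.24 in the tumour (−2.14 ± 0.61, adjusted p = 0.0106). Cd74, the invariant chain, fell by 1.71 ± 0.47, the costimulatory receptor gene Cd40 by 2.37 ± 0.35 and Cd86 by 0.98 ± 0.15. Without LP library V, 2 members were lower in place of 7, H2-Aa at −1.83 and Cd74 at −1.37 losing their calls, and without tumour library I 4 were lower. The same LP library held the highest summed level of the B and plasma cell list (13.18 against 11.39 and 10.98 log2 RPKM in the other LP libraries and 5.95 to 7.27 in the tumour) and of the dendritic cell list (7.56 against 6.56 and 6.62, and 1.5 to 4.39 in the tumour), cells that carry class II, and their part in the result was not tested. Of 10 class I presentation genes, 3 were lower and 0 higher. Under every scaling 1 was lower, with summed reads 8 and with reads outside the top genes 5, and 1 was lower without LP library III and 1 without tumour library II. H2-K1, a classical class I chain, stood at 10.57, 10.48 and 10.58 in LP and 9.61, 9.45 and 9.77 in the tumour (−0.93 ± 0.17, adjusted p = 2.6e-04).

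Neutrophil identity genes checked the labels of the sort. Their summed level was 15.15 to 15.32 log2 RPKM in LP and 16.08 to 16.35 in tumour neutrophils, against 8.80 to 12.60 in the 18 other libraries, and each of the 30 was read in both groups. With the spread shared over all populations, 7 of 30 were higher and 0 lower, with a median of 1.10 log2 and 0 calls under every scaling. Ly6g, which marks neutrophils and was used in the sort, stood at 6.09, 6.52 and 5.41 in LP and 8.70, 7.97 and 7.49 in the tumour. The groups did not overlap, but the difference of 2.04 ± 1.23 was not called (adjusted p = 0.222). The spread in this fit was shared over all populations, including those with almost no reads of Ly6g. The alarmin subunit gene S100a8 stood at 12.55, 12.68 and 12.13 in LP and 13.56, 13.72 and 13.13 in the tumour (1.02 ± 0.83, adjusted p = 0.379). The count depended strongly on the choice of fit, with 18 higher and 1 lower when only the neutrophil libraries were fitted, 0 higher with quantile normalisation, and 4 higher without LP library V or tumour library I. Csf3r, the receptor of granulocyte colony-stimulating factor, differed by 0.30 ± 0.16 and Cxcr2, the receptor of Cxcl2, by −0.54 ± 1.19, neither called.

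Among 18 secondary and tertiary granule genes 5 were higher and 0 lower, 2 higher under every scaling, with a median of 1.09 log2 (0.61 to 1.33 over the scalings), and 3 were higher without LP library V or tumour library I. Lyz2, lysozyme, stood at 10.56, 10.45 and 10.75 log2 RPKM in LP and 12.50, 12.30 and 11.98 in the tumour (1.68 ± 0.27, adjusted p = 8.6e-05). Lyz2 shares 14.8% of its stretches with Lyz1 and was higher under every scaling. Mmp9, the gelatinase, rose by 1.58 ± 0.52 and Cd177, a surface partner of proteinase 3, by 2.33 ± 0.80, and neither held its call with each library left out. Mmp9 lost it without LP library V or tumour library I or II, at 1.33 to 1.62, and Cd177 without LP library III or V or tumour library I or V, at 1.68 to 2.47. Of the primary granule list, whose genes are transcribed in bone marrow precursors, 1 of 6 members passed the filter on level, and it was not called. Of 8 S100 genes 1 was higher and 0 lower.

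Receptors that guide neutrophils moved in both directions. Of 25 migration receptors, 11 were higher and 3 lower, 2 and 3 under every scaling, with a median of 0.50 log2 (0.03 to 0.74). With quantile normalisation 3 were higher and 4 lower and with summed reads 4 and 5, and 7 were higher without LP library IV or V. Ptafr, the receptor of platelet-activating factor, stood at 9.10, 9.25 and 9.10 log2 RPKM in LP and 10.19, 10.54 and 9.84 in the tumour (1.04 ± 0.20, adjusted p = 5.4e-04). Fpr1, the formyl peptide receptor, rose by 1.90 ± 0.50 and Itgam, CD11b, by 0.87 ± 0.20 under the deposited scaling, and Itgam overlaps Gm49368 on the same strand over 68.7% of its exon length. Lower under every scaling were Cxcr4, the retention receptor for Cxcl12, at 7.54, 7.15 and 7.51 in LP and 5.93, 6.63 and 6.71 in the tumour (−0.97 ± 0.23, adjusted p = 0.00307), and C5ar2, the second C5a receptor (−1.45 ± 0.24). C5ar1, the main C5a receptor, was the only gene of all those called that was called in the other direction under another scaling. It differed by 0.64 ± 0.15 under the deposited scaling and by −0.40 under quantile normalisation, and its levels were 11.06, 10.91 and 10.87 in LP and 11.46, 11.74 and 11.56 in the tumour.

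A list of genes that other work has tied to tumour neutrophils had 10 higher and 1 lower of 25 tested, 5 and 1 under every scaling, with a median of 0.55 log2 (0.09 to 0.80). Olr1, the lectin-like receptor LOX-1, stood at 5.99, 5.80 and 5.61 log2 RPKM in LP and 8.38, 8.80 and 8.57 in the tumour (2.78 ± 0.57, adjusted p = 9.2e-04). Cd84, a SLAM-family receptor, rose by 1.25 ± 0.18. Cd14, the lipopolysaccharide coreceptor, stood at 13.47, 13.15 and 13.46 in LP and 14.65, 14.54 and 14.73 in the tumour (1.28 ± 0.27, adjusted p = 0.001), and like Il1b it had a difference of 0.00 under quantile normalisation. The decoy receptor gene Tnfrsf23 was lower, at 7.71, 7.64 and 7.57 in LP and 6.32, 6.21 and 6.45 in the tumour (−1.31 ± 0.29, adjusted p = 0.00158).

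Glycolysis genes were higher for 15 and lower for 2 of 23 tested, 7 and 1 under every scaling, with a median of 0.75 log2 (0.28 to 0.99), and 8 were higher with summed reads. Gpi1, glucose-6-phosphate isomerase, stood at 6.81, 7.11 and 6.17 log2 RPKM in LP and 8.54, 8.14 and 7.97 in the tumour (1.52 ± 0.19, adjusted p = 5.7e-06). Ldha, lactate dehydrogenase A, stood at 9.26, 9.27 and 8.66 in LP and 10.69, 10.35 and 9.99 in the tumour (1.28 ± 0.19, adjusted p = 5.0e-05), and Gapdh rose by 1.13 ± 0.22. All 3 were higher under every scaling. The lactate exporter gene Slc16a3 rose by 1.03 ± 0.18 and the glucose transporter gene Slc2a1 by 0.61 ± 0.16 under the deposited scaling. Pfkfb3, which makes the activator of phosphofructokinase, went the other way, at 8.05, 8.42 and 7.92 in LP and 7.06, 7.30 and 7.34 in the tumour (−0.90 ± 0.19, adjusted p = 0.00104). Of 28 hypoxia genes, 7 were higher and 2 lower, with a median of 0.48 log2 (0.02 to 0.73), and 11 were higher without tumour library V. The 4 that were higher under every scaling were Ddit4, an inhibitor of mTORC1 signalling (1.5 ± 0.32), Ero1l, an oxidase of the endoplasmic reticulum (1.02 ± 0.19), Anxa2 (1.14 ± 0.23) and the carbonic anhydrase gene Car9. Car9 had 0, 4 and 0 reads in LP and 49, 10 and 32 in the tumour, so its fitted difference (6.56 ± 1.53) is imprecise. The lipid droplet gene Plin2 fell by 0.86 ± 0.24 and lost its call without tumour library V at −0.71. Nuclear genes of the respiratory chain had 5 higher and 1 lower of 36, with a median of −0.01 log2 (−0.48 to 0.23 over the scalings). With summed reads 1 was higher and 10 lower, and with libraries centred on their median 9 and 0.

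Mitochondrially encoded genes were higher for 7 and lower for 1 of 14, 2 and 1 under every scaling, with a median of 0.72 log2. The ribosomal RNA gene mt-Rnr1 stood at 5.27, 5.03 and 5.25 log2 RPKM in LP and 7.62, 7.65 and 6.53 in the tumour (2.08 ± 0.42, adjusted p = 8.6e-04), and the oxidase subunit gene mt-Co1, of whose stretches 50.6% occur in other genes, rose by 1.09 ± 0.22. Mitochondrial genes took 0.229 to 0.268% of the reads in LP and 0.329 to 0.412% in tumour neutrophils, and the part of RNA quality in these differences was not tested. Cytosolic ribosomal protein genes had 4 higher and 1 lower of 75 and 0 under every scaling. With summed reads 0 were higher and 17 lower, and with reads outside the top genes 1 and 10. Their median of −0.08 log2 ran from −0.55 to 0.16 over the scalings.

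Sensors of microbes gave calls on both sides. Of 28 pattern recognition genes, 6 were higher and 5 lower, 3 and 10 with summed reads and 8 and 2 with libraries centred on their median, with a median of −0.01 log2, and 3 were lower without LP library IV. Tlr2, the receptor of bacterial lipopeptides, stood at 8.56, 8.5 and 8.43 log2 RPKM in LP and 10.03, 10.41 and 10.13 in the tumour (1.69 ± 0.23, adjusted p = 1.6e-05), whereas its partner Tlr1 stood at 6.57, 6.73 and 5.84 in LP and 4.88, 4.40 and 4.93 in the tumour (−1.65 ± 0.32, adjusted p = 5.3e-04). Both directions held under every scaling. The inflammasome list had 4 higher and 1 lower of 11, 2 and 1 under every scaling, 3 and 4 with summed reads, and 2 lower without tumour library I. Nlrp3, its sensor, stood at 7.76, 7.64 and 7.72 in LP and 9.15, 9.43 and 9.44 in the tumour (1.64 ± 0.27, adjusted p = 1.1e-04). Of 9 NADPH oxidase genes, 3 were higher and 1 lower, but 1 and 4 with summed reads. Called under every scaling were 1 each way, the cytosolic subunit gene Ncf1 (1.34 ± 0.20) and the proton channel gene Hvcn1 (−0.91 ± 0.18), which overlaps Tctn1.

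In the survival and death list, 3 genes were higher and 5 lower of 22, 1 and 4 under every scaling. The median was 0.40 log2 (−0.06 to 0.65). With libraries centred on their median 5 were higher and 4 lower, and with summed reads 1 and 7. Those counts are read beside the 19.0% of all genes that were lower. The 4 lower under every scaling were Bid, Bak1, Bax and Casp8, and Birc3, an inhibitor of apoptosis, was higher under every scaling (1.43). Bid, the BH3 protein cleaved by caspase 8, stood at 5.51, 5.85 and 5.22 log2 RPKM in LP and 3.43, 4.30 and 3.26 in the tumour (−1.87 ± 0.31, adjusted p = 1.3e-04). Bak1, a pore-forming effector that overlaps Ggnbp1, fell by 2.00 ± 0.38, its relative Bax by 1.29 ± 0.33 and Casp8 by 1.00 ± 0.14. Among transcription factors 4 were higher and 7 lower of 25, with a median of −0.20. The counts were 7 and 5 with libraries centred on their median and 3 and 11 with summed reads. The zinc finger gene Klf6 rose by 1.14 ± 0.22, and Batf, at 6.21, 6.48 and 6.56 in LP and 5.25, 5.61 and 5.10 in the tumour (−1.10 ± 0.26, adjusted p = 0.00284), Runx1 (−0.69 ± 0.16) and Stat5a (−1.29 ± 0.27) were lower. Heat shock genes had 3 higher and 1 lower of 12, with Hspa8, of whose stretches 39.1% occur in other genes, rising by 1.4 ± 0.28 and Hspa5 of the endoplasmic reticulum falling by 0.76 ± 0.20. Of 26 genes of S and G2/M phases, 2 were higher and 3 lower. The counts were 4 and 3 with libraries centred on their median, and 1 and 6 with summed reads. Pcna, the sliding clamp of DNA replication, stood at 4.94, 4.54 and 4.99 in LP and 3.56, 3.69 and 3.45 in the tumour (−1.26 ± 0.15, adjusted p = 4.7e-06), and Mki67 fell by 1.17 ± 0.24.

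**Figure D4:**
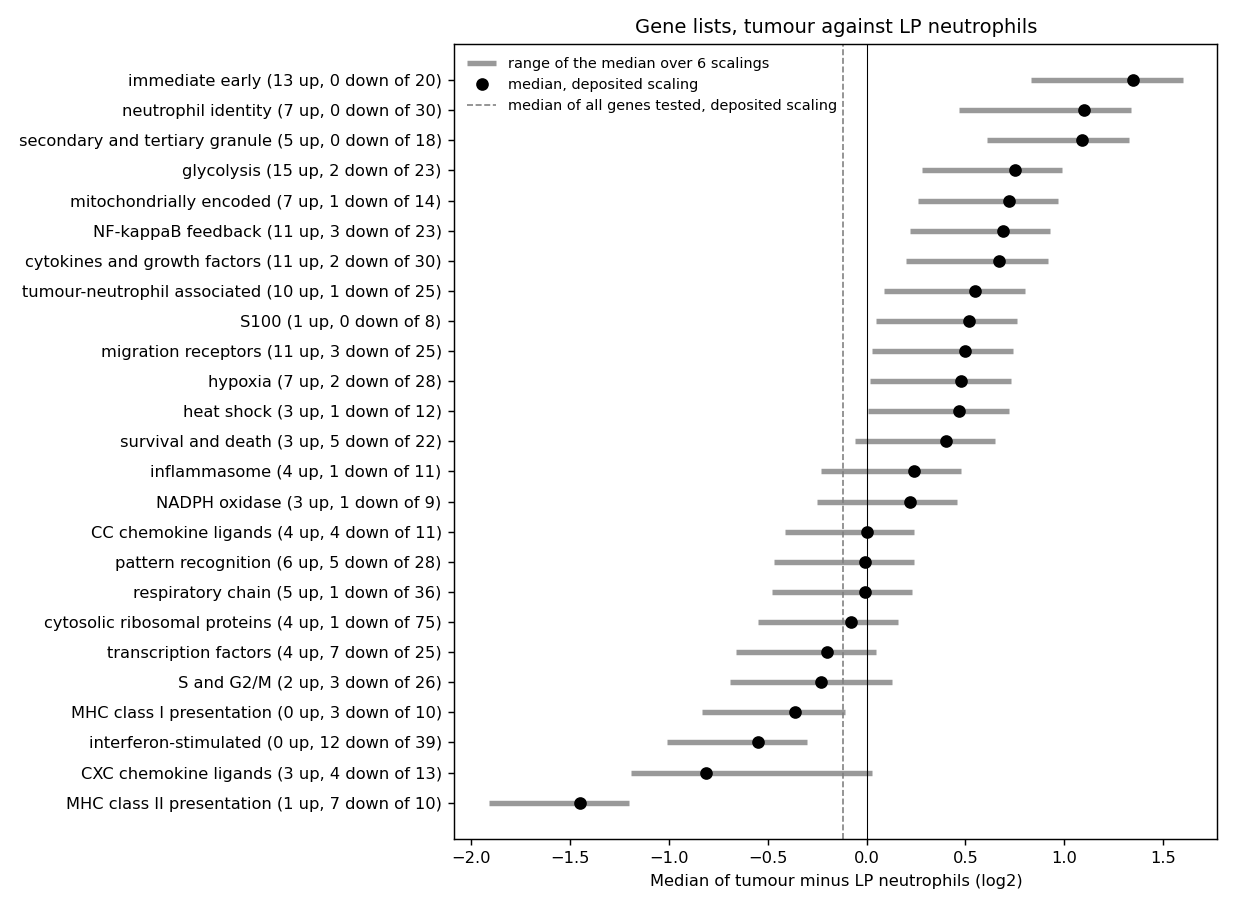
Median tumour minus LP difference (log2) of each pathway list with at least 8 genes tested, marker lists of other cell types not drawn, with the deposited scaling as points and the range over 6 scalings as grey bars; the dashed line is the median of all genes tested, −0.12. The counts beside each name are genes called higher and lower under the deposited scaling; among the lists drawn the immediate-early list lies highest at 1.35 and the MHC class II presentation list lowest at −1.45, and only the lists whose bar stays on 1 side of 0 keep the sign of their median under every scaling.

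Gene families outside the lists were counted by name. Zfp genes, which encode zinc finger proteins, had 17 higher and 69 lower of 249, 13 and 45 under every scaling. Their median was −0.75 log2 (−1.13 to −0.42 over the scalings), against −0.23 in monocytes, at a median level of −0.48 log2 RPKM in neutrophils. Mitochondrial ribosomal protein genes had 2 higher and 17 lower of 75, with a median of −0.47. Solute carriers had 33 higher and 39 lower of 202, with a median of 0.00. These families were chosen after the gene values had been seen.

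Several lists of markers of other cell types held genes called between the groups. Immunoglobulin genes took 0.360 to 1.25% of the reads in LP and 0.00566 to 0.0148% in tumour neutrophils, and 113 of 172 were lower and 0 higher. The constant-chain gene Igkc stood at 11.01, 10.61 and 12.94 log2 RPKM in LP and 1.81, 6.42 and 4.65 in the tumour (−7.23 ± 1.51, adjusted p = 0.00111). Of the 9 B and plasma cell markers tested 6 were lower, of 6 dendritic cell markers 4, and of 7 T and NK cell markers 1 (Il7r), with none higher. Of 10 fibroblast markers 7 were lower and 0 higher, with summed levels of 4.74 to 5.58 in LP and 1.10 to 2.49 in the tumour. The collagen gene Col1a2 had 216, 242 and 336 reads in LP and 0 in each tumour library, at least 42.7-fold lower, and Lum, lumican, was at least 25.1-fold lower. Both endothelial markers tested were lower, Pecam1 by 2.80 ± 0.68, and of 4 platelet markers 1 was lower. Fitted medians in neutrophils were −5.93 log2 for fibroblast, −7.07 for B and plasma cell and −4.14 for endothelial markers. In the monocyte libraries they were −7.12, −5.45 and −4.30. Dendritic cell and T and NK cell markers had medians of −4.47 and −2.40 in neutrophils, but −0.68 and −0.32 in monocytes.

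Epithelial and erythroid markers went the other way. The summed level of epithelial markers was 4.71 to 6.60 log2 RPKM in LP and 7.77 to 8.69 in the tumour, with 3 of 14 higher and 0 lower, and 1 higher without LP library III. Krt8 differed by 3.09 ± 0.98, a call lost without LP library III or IV or tumour library I (2.66 to 2.86), and 29.5% of its stretches occur in a pseudogene. Epcam differed by 2.91 ± 1.11 and was not called (adjusted p = 0.0516). All 4 erythroid markers tested were higher, Alas2 of haem synthesis with 0 reads in LP and 97, 6 and 61 in the tumour and the globin gene Hbb-bs with 0, 0 and 2 against 103, 41 and 42. Epithelial and erythroid markers had fitted medians of 2.84 and 7.88 log2 in neutrophils and of 2.64 and 4.07 in monocytes. Macrophage markers summed to 9.61 to 9.85 in LP and 9.40 to 9.58 in tumour neutrophils, below the 10.44 to 14.79 of the other libraries. Of these 14 markers, 4 were higher and 4 lower, 1 and 3 under every scaling and 1 and 5 with summed reads. Monocyte markers had 2 higher and 1 lower of 7, mast cell markers 1 higher of 7 and eosinophil markers 0 of 4. The part of these cell types in the differences of other genes was not tested.

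**Figure D5:**
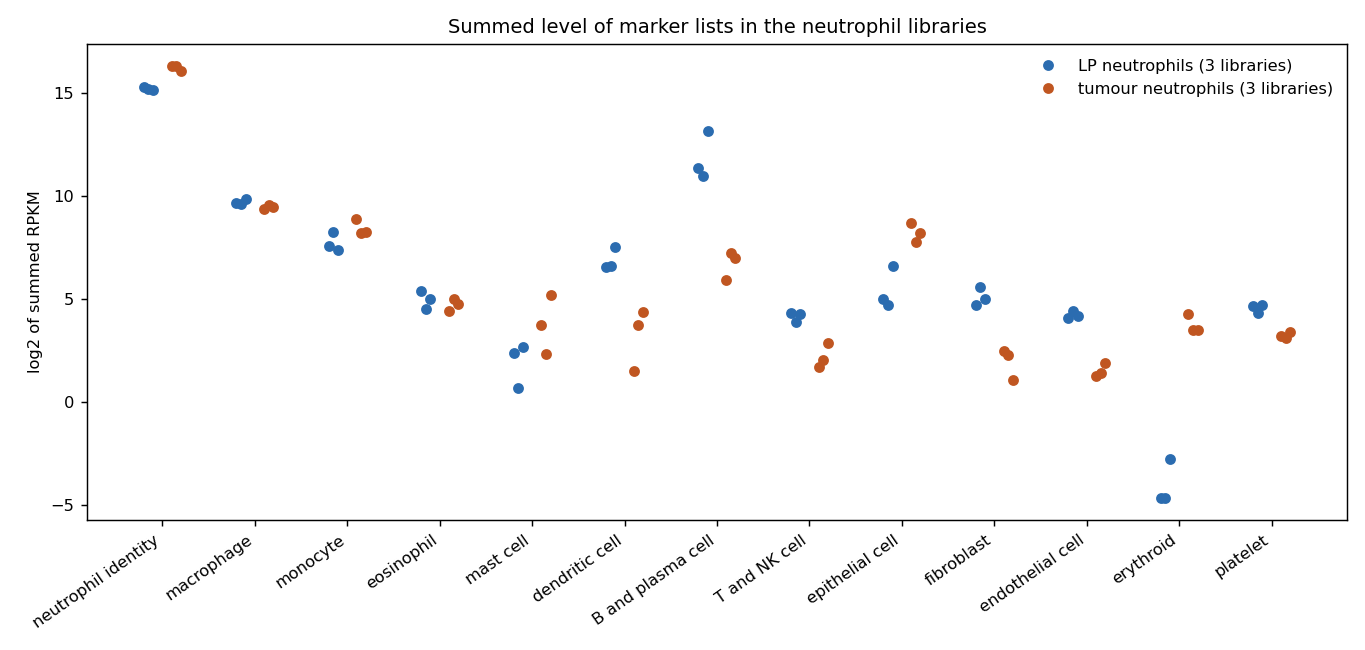
Summed level of each marker list (log2 of summed RPKM) in the 3 LP (blue) and 3 tumour (orange) neutrophil libraries. Neutrophil identity genes lie highest in all 6. Without overlap, B and plasma cell, dendritic, T and NK cell, fibroblast, endothelial, platelet and, by a small margin, macrophage markers lie lower in the tumour. Neutrophil identity, epithelial and erythroid markers lie higher there, also without overlap.

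To see where the neutrophils differed from another population of the same tissues, the tumour minus LP difference was compared with that of monocytes in the same fit. The interaction was called for 1173 genes (9.11%) in either direction. Of the 23 NF-kappaB feedback genes 9 were among them, of 20 immediate-early genes 5, of 39 interferon-stimulated genes 5 and of 23 glycolysis genes 4. The interferon-stimulated count lay near the share of all genes. Other lists had 5 of 22 (survival and death), 3 of 11 (inflammasome), 4 of 25 (transcription factors) and 0 of 30 (neutrophil identity). The medians of the first 4 lists were 0.69, 1.35, −0.55 and 0.75 log2 in neutrophils. In monocytes they were 0.28, 0.62, −0.80 and 0.69. Zfp36 rose in neutrophils by 1.98 ± 0.32 more than in monocytes, where its difference was 0.17 (adjusted p = 9.1e-04), and Rel by 1.23 ± 0.21 more than its 0.34 in monocytes (adjusted p = 0.00124). Il1a and Osm showed no such call, with interactions of 0.96 and 0.76 (adjusted p = 0.129 and 0.155). Pfkfb3 differed by −0.90 in neutrophils and 1.38 in monocytes (interaction −2.27 ± 0.26, adjusted p = 4.3e-05), and Cxcr4 by −0.97 and 0.89 (−1.86 ± 0.33, adjusted p = 0.00147). Ifit1 was lower in both, by 1.79 ± 0.37 in neutrophils, and its interaction was 2.12 ± 0.52 (adjusted p = 0.0136), the monocyte difference being −3.91. Within a tissue, the neutrophil and monocyte libraries carried the same 3 donor numbers. With tissue and donor as a block 1275 genes were called, all 1173 among them. The counts of these lists and the calls of the 7 genes in this comparison were as without the block, whereas Mmp7 gained a call (6.10, adjusted p = 0.0596 without and 0.0489 with it). The interaction count was 532 with quantile normalisation and 1806 with summed reads.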

How the data were processed

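Neutrophils, monocytes and macrophages of 2 tissues were sequenced in 24 libraries, 3 per group. The authors aligned reads with STAR to GRCm38/mm10, counted them on GENCODE genes with featureCounts, left out genes with few reads and deposited log2 RPKM values for 17301 genes. From these log2 values, with a prior of 0.25 reads, whole reads were recovered for 415224 of 415224 values (tolerance 0.001 reads, 1 length per gene), and 0 columns of samples were left unused. The recovered reads gave the depth, a floor of 3 reads per library and alternatives. Genes whose mean reached an RPKM of 1 in any of the 8 groups entered a linear model of the 8 group means, with 16 residual degrees of freedom (limma 3.58.1, R 4.3.3, empirical Bayes with an intensity trend). P-values were adjusted by the Benjamini-Hochberg method with a threshold of 0.05. Values ± are standard errors. Fold changes are on the scale of log2(RPKM) with that prior and understate changes of low genes. P-values measure the spread between pooled samples.

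Named genes were the 12 largest rises and 12 largest falls among called genes whose 3 tumour and 3 LP libraries did not overlap and whose higher group reached an RPKM of 10, without predicted genes, pseudogenes and antigen receptor segments, and members of the gene lists. One list member is not reported here. The comparison, its members and the lists were chosen with earlier results of these data known. The requirement of a call under all 6 scalings was added after seeing the data. Coordinates are from GENCODE M21 (GRCm38), in which 17190 genes had a match. Sharing was measured as the share of 51-base stretches of a gene's transcripts found in other genes, and as exon overlap. By at least 1 of these measures it also exceeded 10% for Alas2, Bax, Bid, Csf3r, Gapdh, Gpi1, Hbb-bs, Il1a, Mgl2, Mmp7, Ncf1, Pcna, Tlr1 and Tnfrsf23.

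The fit was checked on data made with known changes. It missed some of those changes and called some unchanged genes, mostly genes of low level. Donor numbers did not pair tumour with LP neutrophils, which share 1 number and come from different mice, but by the labels the 6 neutrophil and 6 monocyte libraries pair by tissue and donor. The correlation within number and tissue was −0.0661 to 0.255 over 29 pairs. Figures were drawn with matplotlib 3.10.9.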

Additional observations from a re-analysis of the deposited data

Results flagged for a closer look

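For 33 of the genes named above, the tumour minus LP difference differed between neutrophils and monocytes by a test of the interaction itself (limma, adjusted p under 0.05). Values are the neutrophil minus the monocyte difference in log2. The immediate-early genes with a larger rise in neutrophils were Zfp36 (1.98), Fosb (1.76), Nr4a1 (1.58), Dusp1 (1.02) and Fos (1.00). Among NF-kappaB feedback genes the values were 1.62 for Nfkbid, 1.41 for Tnfaip3, 1.23 for Rel, 1.17 for Nfkbiz, 0.92 for Nfkbie and 0.86 for Birc3, against −0.77 for Tnip1 and −1.58 for Tnip3. Tnf differed by 1.62, Lyz2 by 1.27, Cd84 by 1.24, Klf6 by 1.23, C5ar1 by 0.90 and Slc16a3 by 0.84.

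Lower in neutrophils relative to monocytes were Kif1a (−3.39), Pfkfb3 (−2.27), Cdt1 (−2.06), Il7r (−1.99), Cxcr4 (−1.86), Mki67 (−1.74), Batf (−1.69), Bid (−1.68), Il18 (−1.58), Runx1 (−1.49), Cd86 (−0.90) and Casp8 (−0.69). Mx2 gave −6.12, a fitted value that rests on 0 reads in the tumour neutrophils and is no bound. Ifit1 gave 2.12, since it was lower in tumour monocytes by more than in tumour neutrophils. Of these genes, Tnf, Il18, Pfkfb3, Cxcr4, C5ar1, Mki67, Runx1 and Batf had mean differences of opposite sign in the populations. Their monocyte values were −0.34, 0.30, 1.38, 0.89, −0.26, 0.56, 0.80 and 0.60 in this order. Klf6 and Tnip1 also had opposite signs, with small monocyte differences. The monocyte difference was not tested on its own.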

How the results depend on the processing

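Calls under the deposited scaling were 1690 genes higher and 2452 lower, with a median of −0.12 log2 over all genes and 1173 genes in the comparison with monocytes. Quantile normalisation gave 1525 lower, a median of 0.03 and 532 genes against monocytes. Centring on the median gave a median of 0.12, and the median of ratios over 24 libraries a median of 0.00. Summed reads gave 799 higher, 4206 lower, a median of −0.57 and 1806 against monocytes, and summed reads outside the top genes 1033 higher and a median of −0.42. The median of ratios within the neutrophil libraries gave 1174 lower, log2(RPKM + 1) a median of −0.04, a fit of the 6 libraries alone 1208 lower, and array weights 1030 higher and 1595 lower. The limma voom method on recovered reads gave 1394 lower with the deposited sizes, and 700 higher with a median of −0.53 with summed reads. The sizes themselves differ between these settings, and no table here says which is right. Leaving out 1 library gave 1399 to 1602 higher, 1990 to 2408 lower, medians of −0.16 to −0.06 and 998 to 1284 genes against monocytes, none beyond 1.5 times the count. With a replicate block for tissue and donor number, 1688 were higher, 2460 lower and 1275 differed from monocytes (correlation 0.0476), and 1 of 120 called genes named in the text lost its call, Csf3 at 2.89 (adjusted p = 0.0529).

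Of those 120 genes, 74 were called in 1 direction in every alternative, and 146 of 2637 combinations of gene and alternative lost the call. Under quantile normalisation the differences of Il1b (0.00) and Cd14 (0.00) vanished and that of C5ar1 turned (−0.40), and no other alternative turned a direction among these genes. With 3 libraries a group and few reads in tumour libraries for genes of other cells, large fitted falls of such genes are imprecise.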
